A study of Homo sapiens and Mus musculus with 16 samples.

Results

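The genes described here encode histone variants whose mRNAs end in a poly(A) tail, and they were taken from a list of 9 symbols (H2AZ1, H2AZ2, H2AX, H2AJ, H3-3A, H3-3B, H1-10, MACROH2A1 and MACROH2A2). All 9 were found among the 22286 genes of the human count table. The mouse table has 15881 genes, and 8 of the 9 were found there by the same spelling or an older name, with H3-3A and H3-3B listed as H3f3a and H3f3b. The mouse gene H1f10 has neither and was taken as the counterpart of H1-10, which makes 9 in mouse. P-bodies, cytoplasmic RNA granules marked by GFP-LSM14A, were sorted from the cytoplasmic fraction of 4 cell types, and RNA of the sorted P-bodies was set against that of the cytoplasm, with 2 libraries per fraction and 16 in all. By the study's methods this fraction, called cytoplasm here, was a resuspended pellet of lysate cleared of nuclei. It was sampled before sorting, so it still held P-bodies and lacked the supernatant. HEK293T, a human embryonic kidney line, and mouse ES cells of the line KH2, kept in serum and LIF, carried the marker on a lentiviral vector. For mouse ES cells the study's methods name a medium with small-molecule inhibitors and LIF, so the medium of these libraries is uncertain. Liver bud progenitors and neurons at day 20 were derived from the human ES cell line UCLA4, with the marker placed at the AAVS1 locus. HEK293T and mouse ES libraries are labelled total RNA, whereas liver bud and neuron libraries are labelled polyA RNA, so cell type and library kind cannot be told apart between these pairs.

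Replication-dependent histone genes are transcribed mainly in S phase, and their mRNAs end in a conserved stem-loop instead of a poly(A) tail. Replacement variants are made throughout the cell cycle from genes that mostly carry introns and ordinary poly(A) signals, and chaperones place them in chromatin outside replication. P-bodies hold mRNAs that are not being translated together with decapping enzymes and translational repressors. H2A.Z sits beside promoters, H3.3 marks active genes and some repeats, H2A.X is phosphorylated at DNA breaks, macroH2A carries a large globular domain found at silent chromatin, and H1-10 is a linker histone.

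The 3′ ends of the members separate H2AX from the others. H2AX is known to give both a stem-loop and a polyadenylated transcript, and among the 9 members the stem-loop sequence was found only in the 3′ UTR of H2AX, in human and in mouse. In the human annotation (GENCODE 44), 0.391% of canonical transcripts held this sequence in their 3′ UTR (75 of 19203, of which 72 were histone genes). The stem-loop of H2AX is shown beside that of H4C3, a replication-dependent gene (capitals mark the stem and loop, hg38, chr11:119094891-119094920 on the minus strand and chr6:26104310-26104337 on the plus strand).
H2AX stem-loop: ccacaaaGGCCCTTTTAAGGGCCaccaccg
H4C3 stem-loop: acccaaaGGCCCTTTTCAGGGCCgctca
A poly(A) signal (AATAAA or ATTAAA, in capitals) lay in the last 50 bases of 7 of the 9 human transcripts, and it is shown for H2AX (chr11:119093881-119093910), H2AZ1 (chr4:99948090-99948119) and H3-3B (chr17:75776436-75776465), all on the minus strand.
H2AX signal: tggactaattttATTAAAggattgtttttt
H2AZ1 signal: gtggataagttcAATAAAggtcatatccca
H3-3B signal: ggatgagactaaAATAAAatttttgaagtt
The human transcripts differed widely in base composition. GC content was 66.8% in H2AX, 68.6% in H1-10 and 63.1% in H2AJ, which have a single exon each, and 42.8% to 52.9% in the other 6, against a median of 49.1% over canonical transcripts.

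Library totals ranged from 6368953 to 17972284 counts. Markers of the labelled cells were found: in cytoplasm, in CPM of the library total, the neuron markers on the list summed to 9533 to 10072 CPM in the neuron libraries. In the liver bud libraries all 9 hepatic endoderm markers reached 1 CPM in at least 1 cytoplasmic library, with HNF4A at 40.0 and 37.8 CPM. Their sum was 435 to 447 CPM, beside 112 to 118 in HEK293T, 57.3 to 61.2 in neurons and 467 to 470 in mouse ES cells. Single genes gave most of it, APOB in liver bud (310 and 289 CPM) and Tbx3 in mouse ES cells (450 and 449). FOXA2, HNF4A, APOB, AFP, TTR and SOX17 were higher than in HEK293T, whereas HHEX, PROX1 and TBX3 were lower. Markers of pluripotent cells were present in liver bud cytoplasm at a summed 1455 to 1480 CPM (7 of 8 at 1 CPM or more, LIN28A at 657 and 658). Neuron markers summed to 199 to 201 CPM there. Neural progenitor markers summed to 368 to 374 CPM in neuron cytoplasm, 139 to 140 in liver bud and 160 to 184 in HEK293T. Fibroblast markers summed to 210 to 228 CPM in liver bud cytoplasm, 136 to 145 in neurons and 4.38 to 5.44 in HEK293T. Cycling markers summed to 1445 to 1539 CPM in neuron cytoplasm, 3227 to 3252 in liver bud, 3277 to 3295 in HEK293T and 5826 to 6046 in mouse ES cells. In bulk RNA, fewer cells of a type and less RNA per cell cannot be told apart, and the part these other cells play in the results was not tested.

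The histone variant mRNAs were mostly lower in P-bodies than in cytoplasm in HEK293T, neurons and mouse ES cells, and were split in liver bud progenitors. In HEK293T 6 of 9 were depleted from P-bodies and none enriched, while 22.8% of the 21903 genes tested were depleted and 19.3% enriched (edgeR, adjusted p under 0.05). Liver bud progenitors had 3 members enriched and 2 depleted, against 21.4% and 17.1% of all genes. In neurons 5 members were depleted and none enriched, against 14.1% and 14.6% of all genes. In mouse ES cells 5 were depleted and none enriched, against 20.6% and 25.8%. The median log2 change of the 9 members was -0.92 in HEK293T, -0.16 in liver bud, -0.54 in neurons and -0.53 in mouse ES cells, beside -0.01, -0.09, 0.19 and -0.11 over all genes tested.

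**Figure D1:**
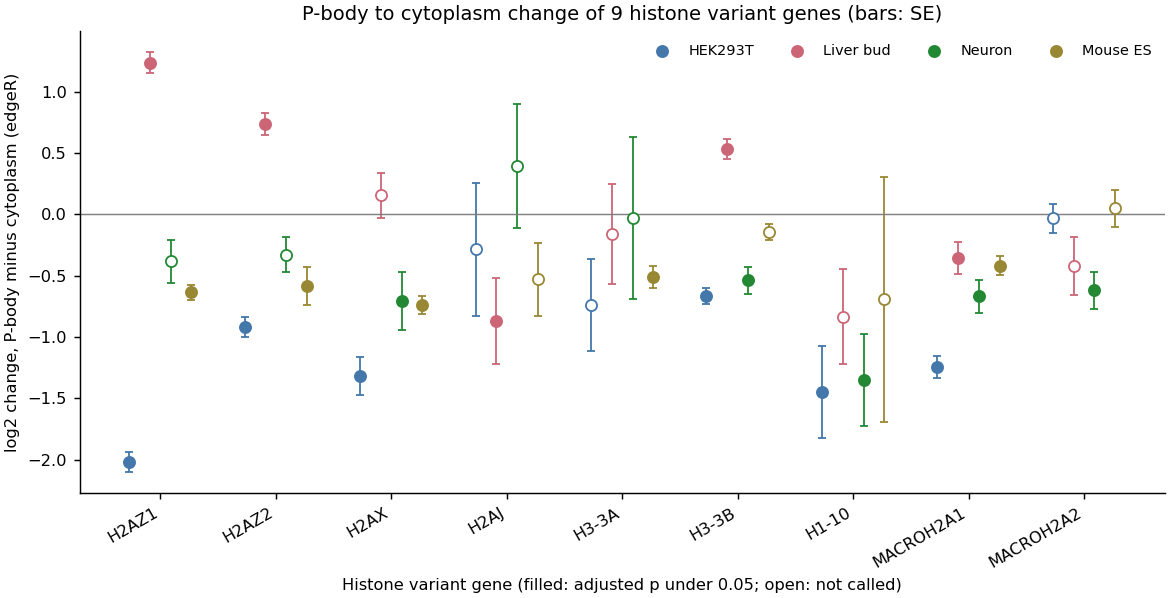
The log2 change from cytoplasm to P-body (vertical axis, edgeR estimate with its SE) for each of the 9 histone variant genes (horizontal axis) in 4 cell types; filled points passed an adjusted p of 0.05. H2AZ1 lies lowest in HEK293T at -2.02 and highest in liver bud progenitors at 1.24.

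H2AZ1, which encodes H2A.Z.1, had the largest changes of the 9 members in HEK293T and in liver bud progenitors, in opposite directions. Its level in HEK293T, in CPM (read counts relative to the library total, scaled by TMM), was 59.9 and 62.6 in the P-body libraries and 279.99 and 216 in the cytoplasmic libraries. The cytoplasmic libraries were thus the higher ones without overlap, their mean being 248 ± 45.2 CPM beside 61.2 ± 1.86 for P-bodies (SD, n = 2). The fitted log2 change was -2.02 (SE 0.079, adjusted p = 8.0e-31), a 4.05-fold lower level in P-bodies. Liver bud progenitors showed the reverse, with 141 and 129.7 CPM in P-bodies and 58.9 and 55.9 in cytoplasm. Here the P-body libraries were the higher ones without overlap, and the log2 change was 1.24 (SE 0.084, adjusted p = 1.2e-20). In neurons the values were 32.1 and 28.98 CPM in P-bodies and 41.3 and 38.3 in cytoplasm. These did not overlap, yet the log2 change of -0.38 (SE 0.18, adjusted p = 0.13) was not called. In mouse ES cells H2az1 stood at 119.8 and 112 CPM in P-bodies and 172 and 189 in cytoplasm, and was depleted with a log2 change of -0.64 (SE 0.0601, adjusted p = 2.7e-09). A transcript annotated to Tmcc1 is 99.9% identical to mouse H2az1 over 682 bases, so reads between these could be split.

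H2AZ2 encodes the second H2A.Z protein, and its coding sequence is 80.9% identical to that of H2AZ1 in human. It took the same direction as H2AZ1 with smaller changes. HEK293T had 53.6 and 52.2 CPM in P-bodies and 97.9 and 102 in cytoplasm, with a fitted log2 change of -0.92 (SE 0.083, adjusted p = 7.1e-15). Liver bud progenitors had 101 and 89.3 CPM in P-bodies and 55.2 and 59.1 in cytoplasm, and H2AZ2 was enriched with a log2 change of 0.73 (SE 0.091, adjusted p = 2.2e-10). The order of the fractions was therefore turned around between these cell types, without overlap in either. Neurons had 56.3 and 61.7 CPM in P-bodies and 68.8 and 79.4 in cytoplasm, which gave a log2 change of -0.33 (SE 0.14, adjusted p = 0.0997) that was not called. Mouse ES cells had 14.2 and 12.3 CPM in P-bodies and 20.7 and 19.2 in cytoplasm, and H2az2 was depleted with a log2 change of -0.59 (SE 0.16, adjusted p = 0.0032). With all human libraries in a single fit both genes were called depleted in neurons (-0.49 with adjusted p = 0.0042 for H2AZ1 and -0.44 with adjusted p = 0.0028 for H2AZ2, edgeR). Single libraries also moved some of these calls: without the first neuron P-body library H2AZ1 passed (-0.46, adjusted p = 0.036, edgeR), without the second H2AZ2 did (-0.397, adjusted p = 0.031), and without the second mouse ES P-body library H2az2 did not (-0.47, adjusted p = 0.062).

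H2AX, the gene with both kinds of 3′ end, was depleted in 3 of the 4 cell types. In HEK293T it was measured at 10.6 and 9.81 CPM in P-bodies and 22.1 and 28.9 in cytoplasm, with no overlap. The log2 change was -1.32 (SE 0.16, adjusted p = 8.7e-11). Mouse ES cells had 59.99 and 54.8 CPM in P-bodies and 93.4 and 98.6 in cytoplasm, the highest CPM of this gene among the cell types, and a log2 change of -0.74 (SE 0.075, adjusted p = 8.3e-09). In neurons, with 16.99 and 16.1 CPM in P-bodies and 31.4 and 22.5 in cytoplasm, the log2 change was -0.705 (SE 0.24, adjusted p = 0.042). The call in neurons was lost without either cytoplasmic library (-0.46, adjusted p = 0.52, without the first and -0.94, adjusted p = 0.057, without the second, edgeR) and with DESeq2 (adjusted p = 0.11), RLE, library size only or the filter on low counts (adjusted p = 0.061, 0.11 and 0.072 in edgeR). Liver bud progenitors had 14.5 and 20.5 CPM in P-bodies and 13.5 and 17.8 in cytoplasm, values that overlapped, and the log2 change of 0.16 (SE 0.18, adjusted p = 0.57) was not called.

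H2AJ, a mammalian H2A variant close to canonical H2A, was measured by few reads, with 10 to 18 counts per library in HEK293T. The HEK293T values were 0.9599 and 0.929 CPM in P-bodies and 1.45 and 0.851 in cytoplasm, which overlapped (log2 change -0.29, SE 0.54, adjusted p = 0.75). It was called depleted in liver bud progenitors, where 2.69 and 2.899 CPM in P-bodies stood below 6.003 and 4.3003 in cytoplasm (log2 change -0.87, SE 0.35, adjusted p = 0.043). That call was lost without the first cytoplasmic library (-0.62, adjusted p = 0.36), the first P-body library (-0.82, adjusted p = 0.13) or the second (-0.92, adjusted p = 0.089, edgeR), with DESeq2 (adjusted p = 0.19) and with all human libraries in a single fit (adjusted p = 0.14). Neuron P-bodies held 4.19 and 4.35 CPM and neuron cytoplasm 3.305 and 3.1996, the only human cell type where P-bodies were the higher fraction for this gene, with a log2 change of 0.39 (SE 0.51, adjusted p = 0.59) that was not called. In mouse ES cells H2aj had 2.95 and 3.38 CPM in P-bodies and 5.63 and 3.52 in cytoplasm (log2 change -0.53, SE 0.301, adjusted p = 0.16). It was not called with all 4 libraries. Without the second cytoplasmic library it was (-0.83, adjusted p = 0.038), and without the first the change shrank to -0.16.

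The H3.3 protein is made by H3-3A and H3-3B, which share the same protein sequence from different coding sequences. The first 30 coding bases are shown because they bear on where the reads were counted (hg38; capitals mark bases that differ from H3-3B; chr17:75779145-75779174 on the minus strand, chr1:226064352-226064381 and chr2:174719908-174719937 on the plus strand).
H3-3B: atggcccgaaccaagcagactgctcgtaag
H3-3A: atggcTcgTacAaagcagactgcCcgCaaA
H3P6: atggcTcgTacAaagcagactgcCcgCaaA
H3-3A differed from H3-3B at 6 of these 30 bases and from H3P6, a processed pseudogene on chromosome 2, at 0. H3P6 was identical to H3-3A over 411 bases, and it held 1176 to 5669 counts per human library where H3-3A held 18 to 35. Of the counts of both genes together, 97.9% to 99.6% were listed under H3P6, so the reads of H3-3A and of H3P6 cannot be told apart in the human table.

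H3-3B was called in each human cell type. In HEK293T it had 119.6 and 122 CPM in P-bodies and 199 and 183 in cytoplasm and was depleted with a log2 change of -0.66 (SE 0.067, adjusted p = 3.8e-13). Neurons gave a like picture, with 95.4 and 105 CPM in P-bodies, 142 and 149 in cytoplasm and a fitted log2 change of -0.54 (SE 0.11, adjusted p = 0.0023). Liver bud progenitors again stood opposite, with P-bodies at 137 and 130.3 CPM above cytoplasm at 93.1 and 92.1. The log2 change there was 0.53 (SE 0.078, adjusted p = 2.8e-08), and none of the 3 human cell types showed overlap between fractions. In mouse ES cells H3f3b had 82.7 and 80.4 CPM in P-bodies and 88.2 and 91.997 in cytoplasm, which gave a log2 change of -0.14 (SE 0.068, adjusted p = 0.089) that was not called in edgeR, but passed with a filter on low counts (-0.23, adjusted p = 0.0058) and with library size only (-0.55, adjusted p = 7.4e-08).

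The few reads listed under H3-3A gave no call in human cells. They came to 2.19 and 1.16 CPM in P-bodies and 2.57 and 2.98 in cytoplasm in HEK293T (log2 change -0.74, SE 0.38, adjusted p = 0.12). Without the first P-body library this change was called (-1.25, adjusted p = 0.043, edgeR), and without the second it was -0.34. Liver bud values were 2.02 and 3.62 CPM in P-bodies and 2.64 and 3.67 in cytoplasm (log2 change -0.16, SE 0.41, adjusted p = 0.805), and neuron values 2.21 and 2.18 CPM in P-bodies and 2.08 and 2.3997 in cytoplasm (log2 change -0.0304, SE 0.66, adjusted p = 0.98). With H3-3A and H3P6 summed, a choice made after seeing the data, the levels were far higher and the changes passed the test in each human cell type. The sum was 222 and 226 CPM in P-bodies and 439 and 486 in cytoplasm in HEK293T (log2 change -1.04, SE 0.058, adjusted p = 1.4e-23). In liver bud progenitors it was 257 and 232 CPM in P-bodies and 175 and 175 in cytoplasm (log2 change 0.48, SE 0.068, adjusted p = 8.8e-09). In neurons it was 284 and 302 CPM in P-bodies and 504 and 503 in cytoplasm (log2 change -0.78, SE 0.082, adjusted p = 9.3e-06). The summed row thus took the same direction as H3-3B in each human cell type, lower in P-bodies of HEK293T and neurons and higher in those of liver bud. In mouse ES cells H3f3a had 58.02 and 48.9 CPM in P-bodies and 81.6 and 70.9 in cytoplasm and was depleted (log2 change -0.51, SE 0.089, adjusted p = 4.2e-05). Mouse H3f3a also has near-identical copies, such as the processed pseudogene H3f3c (99% identical over 411 bases). They are not listed among the mouse genes counted, so where their reads were placed is not known.

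H1-10 was low in each cell type and was depleted from P-bodies in HEK293T and neurons. Its HEK293T values of 1.097 and 1.33 CPM in P-bodies and 3.29 and 3.405 in cytoplasm rested on 16 to 41 counts per library and gave a log2 change of -1.45 (SE 0.37, adjusted p = 8.2e-04). Neurons had 3.75 and 4.85 CPM in P-bodies and 10.5 and 11.5 in cytoplasm, the most of the 4 cell types, and a log2 change of -1.35 (SE 0.37, adjusted p = 0.016). Without the first neuron cytoplasmic library the change was -1.43 (adjusted p = 0.13, edgeR), and without the second -1.298 (adjusted p = 0.19), so its size held and its call did not. In liver bud progenitors 3.14 and 1.76 CPM in P-bodies lay below 4.69 and 4.05 in cytoplasm, which gave a log2 change of -0.83 (SE 0.39, adjusted p = 0.083) that was not called. It was called without the first P-body library (-1.2998, adjusted p = 0.029, edgeR), and without the second it was -0.47. Mouse H1f10 had 2 to 6 counts per library, too few to show a difference at this depth.

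MACROH2A1, the more widely expressed macroH2A gene, was depleted from P-bodies in each of the 4 cell types. In HEK293T it had 45.4 and 39.2 CPM in P-bodies and 99.7 and 100.1 in cytoplasm, which gave a log2 change of -1.24 (SE 0.088, adjusted p = 4.4e-19). In neurons P-bodies held 49.6 and 48.7 CPM and cytoplasm 75.4 and 80.8, with a log2 change of -0.67 (SE 0.14, adjusted p = 0.0022). Mouse ES cells had 81.1 and 98.6 CPM in P-bodies and 127 and 113 in cytoplasm, with a fitted log2 change of -0.42 (SE 0.079, adjusted p = 9.8e-05). The fractions did not overlap in any of these. Liver bud progenitors had 26.5 and 26.3 CPM in P-bodies and 35.6 and 31.999 in cytoplasm, with a log2 change of -0.35 (SE 0.13, adjusted p = 0.026). That last call was lost with DESeq2 (adjusted p = 0.13) and, in edgeR, without the first cytoplasmic library (-0.28, adjusted p = 0.19), the first P-body library (-0.36, adjusted p = 0.089) or the second (-0.35, adjusted p = 0.099).

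MACROH2A2, its paralog, was called only in neurons under this test. Neuron P-bodies held 36.8 and 37.9 CPM and neuron cytoplasm 58.3 and 56.6, a log2 change of -0.62 (SE 0.15, adjusted p = 0.0074). Without the first neuron cytoplasmic library the change was -0.61 (adjusted p = 0.088, edgeR) and without the second -0.65 (adjusted p = 0.055). In HEK293T the values overlapped, with 30.03 and 31.98 CPM in P-bodies and 31.7 and 31.7 in cytoplasm (log2 change -0.033, SE 0.12, adjusted p = 0.88), and the sign of this change turned under other scalings. Liver bud progenitors had 8.86 and 6.52 CPM in P-bodies and 9.81 and 10.8 in cytoplasm (log2 change -0.42, SE 0.24, adjusted p = 0.17). Mouse ES P-bodies held 18.3 and 18.2 CPM and the cytoplasm 17.1 and 18.2 (log2 change 0.048, SE 0.15, adjusted p = 0.82). AIFM2 lies on the opposite strand over part of MACROH2A2 and had 6 to 26 counts in human libraries and 62 to 101 in mouse, and whether the counting used strand is not given in the sources used here.

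**Figure D2:**
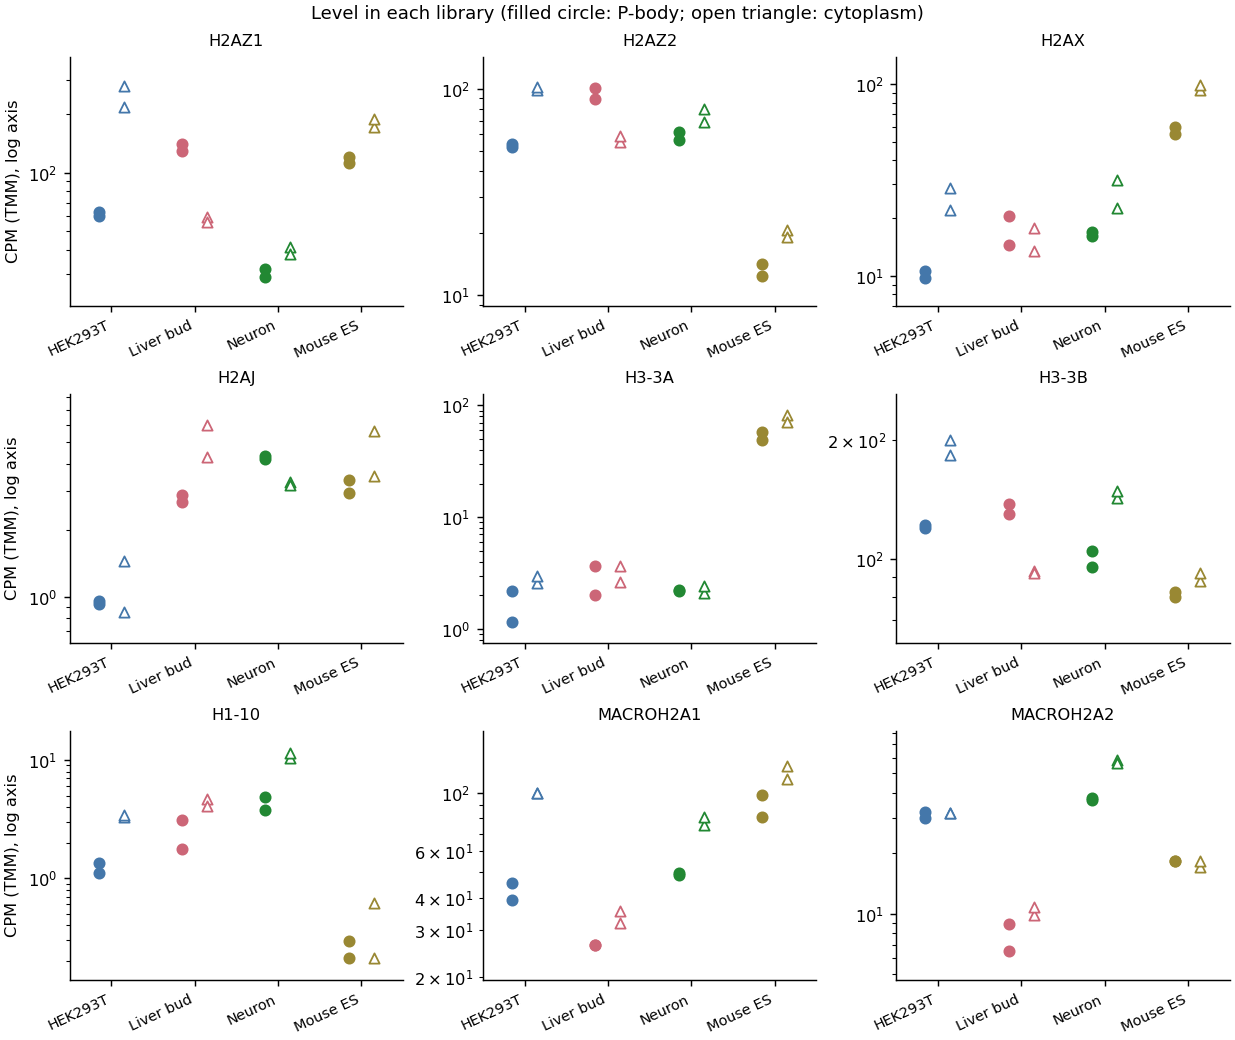
Level of each gene in every library, in CPM scaled by TMM within a cell type (log axis), for P-bodies (filled circles) and cytoplasm (open triangles), 2 libraries each. For H2AZ1, H2AZ2 and H3-3B the P-body libraries lie above the cytoplasmic ones in liver bud progenitors and below them in the other cell types.

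Without overlap between fractions, P-bodies were lower for 7 of 9 members in HEK293T, 4 in liver bud, 7 in neurons and 7 in mouse ES cells, where 33.7%, 32.9%, 30.1% and 39.4% of all genes did the same. P-bodies were higher without overlap for 0, 3, 1 and 1 members, beside 31.1%, 31.2%, 34.9% and 33.6% of all genes. Counts between the 2 neuron P-body libraries differed by a chi-square of 24.8 per gene, and by 2.15 to 6.69 within the other 7 pairs.

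The difference between cell types was tested itself, as the interaction of fraction and cell type. Liver bud progenitors and neurons come from the same ES cell line and share the polyA label, and there H2AZ1, H2AZ2 and H3-3B were relatively less P-body enriched in neurons. The difference of log2 changes, neuron minus liver bud, was -1.63 (SE 0.17, adjusted p = 7.7e-06) for H2AZ1, -1.07 (SE 0.16, adjusted p = 3.0e-04) for H2AZ2 and -1.08 (SE 0.13, adjusted p = 2.9e-05) for H3-3B (edgeR). These were 3 of 9 members lower and 0 higher, against 8.5% and 9.21% of all genes. H3-3A summed with H3P6 gave -1.27 (SE 0.104, adjusted p = 8.1e-07). H2AX had -0.87 (SE 0.34, adjusted p = 0.098) and was not called. It was called with all human libraries in a single fit (-0.96, adjusted p = 0.0405), with the replicate block (-0.85, adjusted p = 0.048), and without the first neuron P-body library (-1.01, adjusted p = 0.0082) or the second (-0.95, adjusted p = 0.013). For MACROH2A1 the difference was -0.32 (SE 0.18, adjusted p = 0.26) and for MACROH2A2 -0.203 (SE 0.26, adjusted p = 0.65), neither called.

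Against HEK293T, liver bud progenitors had 5 members higher and 1 lower, beside 12.5% and 15% of all genes. The difference, liver bud minus HEK293T, was 3.03 (SE 0.13, adjusted p = 1.9e-24) for H2AZ1, 1.43 (SE 0.13, adjusted p = 4.3e-13) for H2AZ2 and 1.25 (SE 0.25, adjusted p = 9.9e-05) for H2AX. It was 0.97 (SE 0.11, adjusted p = 2.8e-10) for H3-3B and 0.66 (SE 0.15, adjusted p = 5.1e-04) for MACROH2A1. MACROH2A2 went the other way with -0.62 (SE 0.24, adjusted p = 0.044). Neurons against HEK293T had 1 member higher and 1 lower (6.35% and 6.19% of all genes), H2AZ1 with 1.495 (SE 0.19, adjusted p = 5.0e-05) and MACROH2A2 with -0.73 (SE 0.19, adjusted p = 0.0197). The MACROH2A2 call for liver bud was lost without either HEK293T cytoplasmic library, the second HEK293T P-body library, either liver bud cytoplasmic library or the second liver bud P-body library, with differences of -0.68 to -0.41. The call for neurons was lost without either HEK293T cytoplasmic library, the second HEK293T P-body library or either neuron cytoplasmic library, with differences of -0.75 to -0.67. H2AZ2 was also called higher in neurons than in HEK293T without the first neuron P-body library (0.52, adjusted p = 0.011), and MACROH2A1 without the first (0.43, adjusted p = 0.047) or the second (0.44, adjusted p = 0.042). These comparisons share the HEK293T libraries, and cell type cannot be told apart from the library kind in them. Mouse ES cells against HEK293T, both labelled total RNA, had 3 members higher and 0 lower over 12736 shared symbols (23.2% and 17.2%), with 1.1999 (SE 0.11, adjusted p = 4.3e-12) for H2AZ1, 0.64 (SE 0.12, adjusted p = 2.1e-05) for MACROH2A1 and 0.34 (SE 0.102, adjusted p = 0.0066) for H3-3B, where species and cell type cannot be told apart. Of these H3-3B was not called with DESeq2 (adjusted p = 0.077), and H2AX was called in edgeR without the first HEK293T cytoplasmic library (0.57, adjusted p = 0.0053) or the second mouse ES P-body library (0.47, adjusted p = 0.043).

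Ratios of paralog counts within a library do not depend on how libraries are scaled. The H2AZ1 to H2AZ2 ratio in HEK293T was 1.12 and 1.199 in P-bodies and 2.86 and 2.11 in cytoplasm, a log2 difference of -1.09. In liver bud progenitors it was 1.39 and 1.45 in P-bodies and 1.07 and 0.946 in cytoplasm, a log2 difference of 0.501. The pair was thus shifted toward H2AZ2 in HEK293T P-bodies and toward H2AZ1 in liver bud P-bodies, each without overlap. Neuron libraries gave 0.571 and 0.4696 in P-bodies and 0.599 and 0.482 in cytoplasm, and mouse ES libraries 8.46 and 9.09 in P-bodies and 8.28 and 9.85 in cytoplasm, both with overlap. Mouse ES cells therefore listed more H2az1 than H2az2 counts in every library, and neurons fewer H2AZ1 than H2AZ2. The MACROH2A1 to MACROH2A2 ratio in HEK293T fell from 3.14 and 3.15 in cytoplasm to 1.51 and 1.23 in P-bodies (log2 difference -1.21), and in mouse ES cells it was 7.42 and 6.19 in cytoplasm and 4.44 and 5.405 in P-bodies (log2 difference -0.47). Liver bud and neuron ratios overlapped between fractions. In an exact two-sided permutation test 2 libraries against 2 cannot give a p below 0.333, which is what each pair without overlap reached.

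For H3.3 the ratio of H3-3A to H3-3B was 0.702 and 0.609 in P-bodies and 0.925 and 0.7703 in cytoplasm of mouse ES cells, a log2 difference of -0.37 that was -0.24 without the first cytoplasmic library and -0.502 without the second. The human ratio with H3P6 added to H3-3A was 1.86 and 1.85 in P-bodies and 2.204 and 2.65 in cytoplasm of HEK293T. In neurons it was 2.98 and 2.88 in P-bodies and 3.54 and 3.38 in cytoplasm, and in liver bud 1.87 and 1.78 in P-bodies and 1.88 and 1.898 in cytoplasm. The sum in human cells was a choice made after seeing the data. With it, and with H3f3a over H3f3b in mouse, all 4 cell types had the lower ratio in P-bodies. The log2 difference was -0.051 in liver bud (-0.015 without its second P-body library and -0.087 without the first) and larger in size in the other 3. As listed, without H3P6, the human ratio rested on few H3-3A counts. Its log2 difference was 0.51 in neurons and -0.73 in liver bud, both without overlap, and -0.13 in HEK293T, with overlap.

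**Figure D3:**
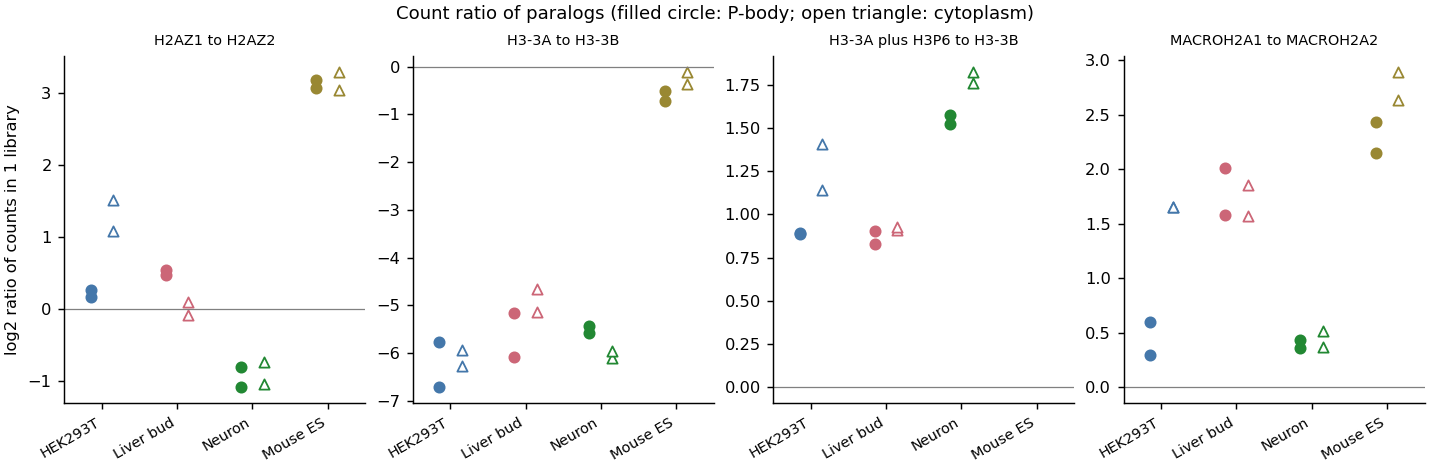
Log2 ratio of the counts of paralogs within each library (vertical axis), for P-bodies (filled circles) and cytoplasm (open triangles) in 4 cell types. The H2AZ1 to H2AZ2 ratio is lower in P-bodies of HEK293T and higher in those of liver bud progenitors; the H3-3A panel shows the near absence of H3-3A counts in human libraries.

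Levels in the cytoplasm were compared between genes in CPM of the library total, divided by the length of the canonical transcript in kb (CPM per kb). With each gene as listed, H2AZ1 led in HEK293T at 299 ± 52.998 CPM per kb (SD, n = 2), followed by H3-3B at 73.97 ± 3.99 and MACROH2A1 at 54.5 ± 0.434. The next were H2AZ2 at 34.6 ± 1.25, MACROH2A2 at 17.2 ± 0.0943 and H2AX at 16.7 ± 3.23, of which the last 2 had overlapping ranges. H1-10 at 2.31 ± 0.06597 and H2AJ at 1.94 ± 0.6997 also overlapped and stood lowest. Liver bud progenitors likewise had H2AZ1 first at 70.7 ± 3.102 and H3-3B second at 36.5 ± 0.564, with overlapping ranges between H2AZ2 and MACROH2A1, between H2AX and H2AJ, and between H3-3A and H1-10. In neurons H3-3B led at 50.8 ± 3.21, before H2AZ1 at 43.4 ± 0.869, MACROH2A1 at 38.5 ± 3.16 and MACROH2A2 at 28.1 ± 0.343. Mouse ES cells had H2az1 at 194 ± 11.9, then H2ax at 79.8 ± 2.55 and Macroh2a1 at 67.4 ± 6.02, and lowest H1f10 at 0.393 ± 0.271. No neighbours overlapped in neurons or mouse ES cells. The order in human cells turns with the counts listed under H3P6: added to H3-3A and divided by its length, a choice made after seeing the data, they came to 452 ± 34.3 CPM per kb in HEK293T, 174 ± 1.32 in liver bud and 444 ± 13.5 in neurons, above each member in those cells.

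**Figure D4:**
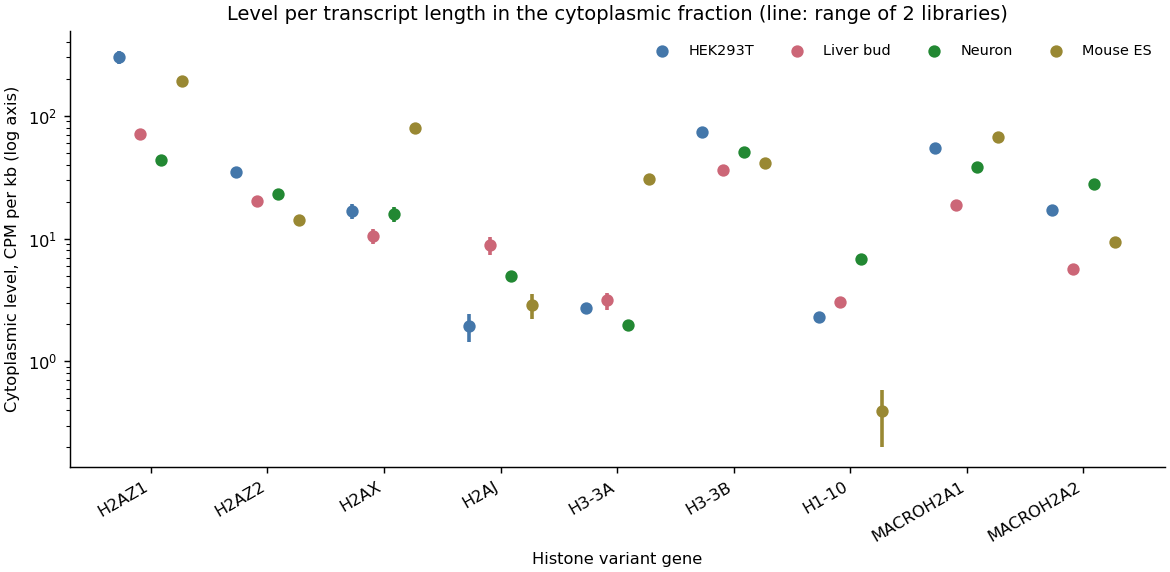
Cytoplasmic level of each gene per kb of transcript (log axis; point, mean of 2 libraries; line, their range) in 4 cell types. As listed, H2AZ1 is the highest member in HEK293T, liver bud and mouse ES cells, and H3-3B in neurons; H3-3A with the H3P6 counts added, which is not drawn, would lie above them in the 3 human cell types.

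Set against liver bud cytoplasm, neuron cytoplasm was compared directly, and 6 members were higher in neurons and 1 lower, where 26% and 25.8% of all 21900 genes tested were. MACROH2A2 differed most, with a log2 difference, neuron minus liver bud, of 2.69 (SE 0.16, adjusted p = 1.3e-25). It was 1.54 (SE 0.27, adjusted p = 1.2e-06) for H1-10, 1.42 (SE 0.12, adjusted p = 2.4e-17) for MACROH2A1 and 0.99 (SE 0.18, adjusted p = 1.8e-06) for H2AX (edgeR). H3-3B followed with 0.86 (SE 0.093, adjusted p = 4.6e-13) and H2AZ2 with 0.58 (SE 0.11, adjusted p = 6.6e-06), the latter not called with library size only (adjusted p = 0.16). H2AZ1 alone was lower in neurons, with -0.32 (SE 0.12, adjusted p = 0.027), a call lost without either liver bud library (-0.28, adjusted p = 0.17, without the first and -0.35, adjusted p = 0.079, without the second) or the second neuron library (-0.27, adjusted p = 0.101). H2AJ (-0.45, SE 0.35, adjusted p = 0.31) was not called. The summed cycling markers were lower in these neuron libraries, as given above. MKI67 gave most of the sum, with 997 and 1090 CPM in neuron and 2171 and 2186 in liver bud cytoplasm. TYMS was higher in neurons (66.1 and 60.4 CPM beside 30.6 and 22.7). The part of the cycling markers in the differences was not tested.

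Replication-dependent histone genes, measured beside the variants, were mostly depleted in HEK293T and mouse ES cells and mostly enriched in liver bud progenitors. In HEK293T 44 of 60 tested were depleted and 0 enriched, with a median log2 change of -1.84. In liver bud progenitors 39 of 64 were enriched and 3 depleted, with a median of 0.73, whereas the 9 variants had a median of -0.16. Neurons had 25 of 63 depleted and 1 enriched (median -0.96), and mouse ES cells 41 of 62 depleted and 2 enriched (median -0.80). Of all genes tested, 22.8% were depleted and 19.3% enriched in HEK293T, and 17.1% and 21.4% in liver bud. Neurons had 14.1% and 14.6%, and mouse ES cells 20.6% and 25.8%. Summed over these genes and taken in CPM of the library total, cytoplasm held 4945 and 5274 CPM in HEK293T against 1188 and 1164 in P-bodies. Liver bud cytoplasm held 2022 and 2262 CPM and its P-bodies 3920 and 3706. The labels give the liver bud and neuron libraries as polyA RNA, and these genes were nevertheless measured there. H4C4 in HEK293T, with 28.3 and 27.5 CPM in P-bodies and 267 and 248 in cytoplasm, had a log2 change of -3.21 (SE 0.077, adjusted p = 7.4e-41). H4C3 in liver bud progenitors, with 889.8 and 779 CPM in P-bodies and 200.1 and 190.1 in cytoplasm, had 2.097 (SE 0.0598, adjusted p = 4.7e-40). H4C5 in neurons had -0.997 (SE 0.078, adjusted p = 8.2e-07) and H4c4 in mouse ES cells -0.95 (SE 0.0703, adjusted p = 3.1e-11). Many of these genes are near copies of each other, so single genes among them are uncertain. Among those called against the direction of their group, H3C14 in liver bud was seen in only 1 cytoplasmic library (12.7 CPM) and H2AC18 in neurons in only 1 P-body library (8.11 CPM), while H3c15 in mouse ES cells had 63.2 and 43.9 CPM in P-bodies and 12.1 and 16.9 in cytoplasm.

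**Figure D5:**
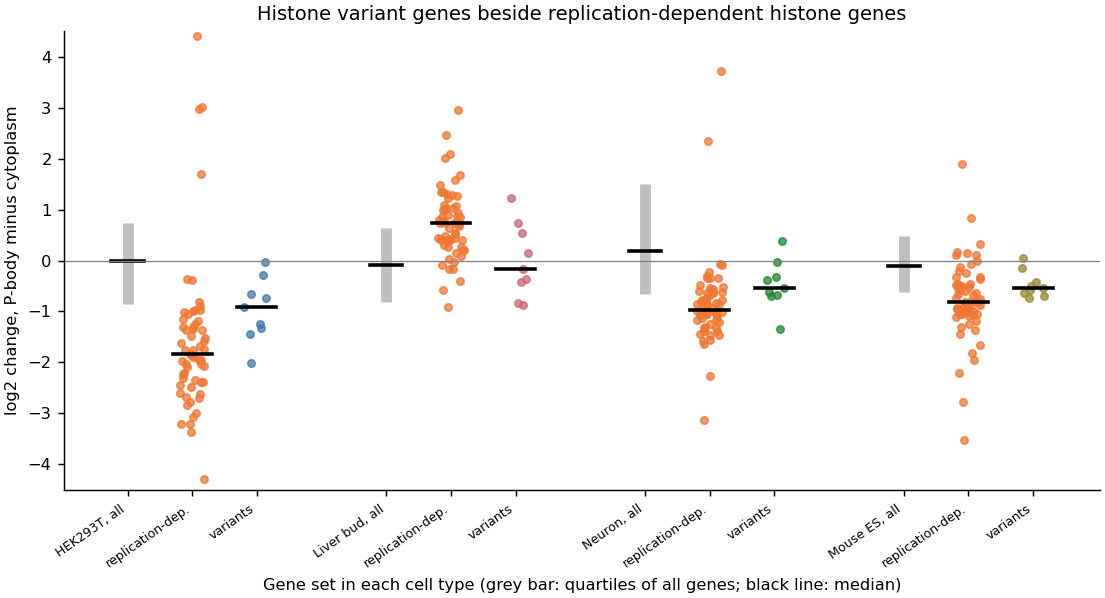
Log2 change from cytoplasm to P-body (vertical axis) of the replication-dependent histone genes and of the 9 variants in each cell type, beside the interquartile range of all genes tested; black lines are medians, and 6 points lie outside the axis. Replication-dependent genes have a median of -1.84 in HEK293T and 0.73 in liver bud progenitors.

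Genes for factors that carry or place these variants were called in both directions. Of 13 genes for H3.3 chaperones and exchange factors, 8 were enriched and 5 depleted in HEK293T, 7 and 2 in liver bud, 7 and 2 in neurons, and 9 and 1 in mouse ES cells, with median log2 changes of 0.56, 0.22, 0.47 and 0.42. Over all genes tested, 19.3% were enriched and 22.8% depleted in HEK293T, and 21.4% and 17.1% in liver bud. The shares were 14.6% and 14.1% in neurons and 25.8% and 20.6% in mouse ES cells. DEK, a chromatin protein that binds H3.3, was enriched in HEK293T (1.103, SE 0.054, adjusted p = 2.1e-26) and liver bud progenitors (1.42, SE 0.059, adjusted p = 2.0e-31). SPTY2D1, an H3-H4 chaperone, had 2.53 (SE 0.14, adjusted p = 3.1e-08) in neurons, and Spty2d1 had 1.61 (SE 0.053, adjusted p = 3.6e-18) in mouse ES cells. CABIN1, a subunit of the HIRA complex that deposits H3.3, was depleted with -1.49 (SE 0.11, adjusted p = 1.6e-19) in liver bud and -1.39 (SE 0.15, adjusted p = 9.1e-06) in neurons, and ASF1B, which passes H3-H4 to other chaperones, with -1.71 (SE 0.15, adjusted p = 1.1e-15) in HEK293T.

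Among 21 genes for H2A.Z, H2A.X and H2A chaperones and exchange factors, 7 were enriched and 10 depleted in HEK293T, 7 and 7 in liver bud, and 4 and 10 in neurons, while of the 20 tested in mouse ES cells 9 were enriched and 5 depleted. All genes tested had 19.3% enriched and 22.8% depleted in HEK293T, and 21.4% and 17.1% in liver bud. For neurons these were 14.6% and 14.1%, and for mouse ES cells 25.8% and 20.6%. NAP1L1, a chaperone of H2A-H2B dimers, was enriched in each cell type, with log2 changes of 1.03 in HEK293T, 1.37 in liver bud, 0.69 in neurons and 0.81 in mouse ES cells. SRCAP, the ATPase of a complex that exchanges H2A for H2A.Z, was depleted in each, with -1.597, -1.69, -1.27 and -1.03.

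Of 9 genes of replication-coupled assembly, 5 were enriched and 2 depleted in HEK293T, 5 and 2 in liver bud, 4 and 1 in neurons, and 4 and 0 in mouse ES cells. The shares of all genes for this list and the next were 19.3% enriched and 22.8% depleted in HEK293T, and 21.4% and 17.1% in liver bud. They were 14.6% and 14.1% in neurons and 25.8% and 20.6% in mouse ES cells. CHAF1A, the large subunit of CAF-1, had a log2 change of 1.43 in HEK293T, and NPAT, which drives transcription of replication-dependent histone genes, had 1.11 in liver bud and Npat 1.47 in mouse ES cells. MCM2, a helicase subunit that also binds H3-H4, was depleted in HEK293T (-0.75), liver bud (-0.67) and neurons (-0.595). The call in neurons was lost with DESeq2, RLE, library size only and the filter on low counts. Its change was -0.43 without the first neuron cytoplasmic library and -0.76 without the second. The last list had 15 genes of mRNA 3′ end processing. It mixes factors for histone mRNA, such as SLBP and LSM11, with general cleavage and polyadenylation factors, such as NUDT21 and PCF11. Of these 15, 9 were enriched and 4 depleted in HEK293T, 8 and 3 in liver bud and 6 and 2 in neurons. Of 14 in mouse ES cells, 7 were enriched and 2 depleted. FIP1L1, a cleavage and polyadenylation factor, had 0.81 in HEK293T and Fip1l1 1.14 in mouse ES cells.

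The genes whose log2 changes over the 3 human cell types lay nearest to each member, among the 4302 genes averaging 20 CPM or more in every one of them, were found by the root mean square difference, given in brackets on the log2 scale. H2AZ1 was nearest to COX7C (0.117) and ATP5PO (0.146), which encode subunits of mitochondrial respiratory complexes. For H2AZ2 they were PPIA (0.0302), a prolyl isomerase, and MRPS7 (0.0497), a mitochondrial ribosomal protein. H2AX was nearest to PSMB2 (0.0402), a proteasome subunit, and ATP5IF1 (0.0512). For H3-3B they were BANF1 (0.04902), a chromatin-binding protein, and TMLHE (0.0515). MACROH2A1 was nearest to KIAA0100 (0.0239) and HNRNPA0 (0.0452), and MACROH2A2 to SAP30BP (0.0193) and KAZN (0.0253). The genes nearest to H1-10 were GANAB (0.0496) and ATP13A2 (0.0671), those nearest to H2AJ were SRGAP2 (0.157) and LAMC1 (0.163), and those nearest to H3-3A, as counted, were FIG4 (0.0773) and PROSER1 (0.0864). Only 3 cell types enter each distance, so close values arise easily among this many genes.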

How the data were processed

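P-body RNA and cytoplasmic RNA were sequenced with paired 150-bp reads. The authors' deposited values are whole-number counts per gene. Reads of total RNA libraries were processed with nf-core RNA-seq and salmon on hg38 or mm10, and Smart-seq libraries, made with the kit that the labels name for the polyA samples, with hisat2 and featureCounts. Both kinds of column stand in a single human table, whose header names no pipeline. Rows with fewer than 10 reads are left out of the deposited tables, where the smallest row total is 10. The deposited results of the authors' own differential tests (DESeq2 fold changes and p-values) were not used.

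From the counts, P-body and cytoplasm were compared within each cell type by edgeR 4.0.16 (R 4.3.3, quasi-likelihood F test, TMM, genes with 0 counts in every compared library left out, two-sided, Benjamini-Hochberg over all genes tested, called at an adjusted p under 0.05). SE is the log2 change divided by the square root of F. Interactions used the 8 libraries of both cell types. Adjusted p-values are edgeR's unless another tool is named. The alternatives were scaling by RLE or by library size alone, DESeq2 1.42.0, edgeR's filter on low counts, leaving out each library, a replicate block, all 12 human libraries in a single fit, ribosomal RNA rows left out and, added after seeing the data, H3-3A and H3P6 summed (fits, paralog ratio and level). Tested on simulated data in which 200 genes had a log2 change of 1.58, the test recovered 99.5% in HEK293T, 99% in liver bud, 82.5% in neurons and 99.5% in mouse ES cells. Interactions gave 77% for neuron against liver bud, 79% for neuron against HEK293T, 95% for liver bud and 96.5% for mouse ES cells against HEK293T. The changed genes were drawn above a minimum level, and all other genes were left unchanged. Within single cell types, H2AJ and H3-3A in human cells, H1-10 in HEK293T and liver bud, and mouse H2aj and H1f10 did not reach it. Most member changes were smaller than 1.58, so these shares do not describe them. A count of 3 corresponds to 0.167 to 0.471 CPM over the 16 libraries. Replicates are separate samples by the labels, and the study calls them biologically independent.

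The members and gene lists were chosen with earlier results of these data known. Genes are named by rule: every member, the 2 nearest genes to each, and per list and cell type the called gene of smallest p in each direction, of which part is given; some results of these lists are not reported here. Features and sequences come from GENCODE 44 (hg38) and M21 (mm10), and copies from blastn at 95% identity over 300 bases.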

Additional observations from a re-analysis of the deposited data

Results flagged for a closer look

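Some members differed between cell types in their P-body to cytoplasm change by the test of the interaction itself, and each value is a difference of log2 changes. Neuron minus liver bud, it was -1.63 for H2AZ1, -1.07 for H2AZ2 and -1.08 for H3-3B. Liver bud minus HEK293T, it was 3.03 for H2AZ1, 1.43 for H2AZ2, 1.25 for H2AX, 0.97 for H3-3B, 0.66 for MACROH2A1 and -0.62 for MACROH2A2. Neuron minus HEK293T, it was 1.495 for H2AZ1 and -0.73 for MACROH2A2. Mouse ES cells minus HEK293T, it was 1.1999 for H2AZ1, 0.34 for H3-3B and 0.64 for MACROH2A1. H2AZ1 was the member called in each of these 4 contrasts. Those against HEK293T share its libraries, so the contrasts are not independent. Cell type cannot be told apart from library kind in those of liver bud and neurons against HEK293T. It cannot be told apart from species in that of mouse ES cells. Both MACROH2A2 calls were lost without single libraries, as given above. Groups of 2 libraries allow no check for single outlying samples.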

How the results depend on the processing

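Enriched members numbered 3 in liver bud progenitors under each alternative run except the sum of H3-3A and H3P6, which made 4, and 0 in the other cell types, and depleted members in HEK293T numbered 6 to 7. In liver bud 0 were depleted with DESeq2, 4 with library size only and 1 when the human libraries were fitted together, which gave 7 depleted instead of 5 in neurons, and in mouse ES cells 8 were depleted with library size only, which moved the median of all genes by -0.40 (log2). Library size only moved that median by -0.13 in HEK293T, -0.18 in liver bud and 0.17 in neurons. Of the differences between cell types, liver bud against HEK293T had 0 members lower with DESeq2, library size only and edgeR's filter on low counts. Neuron against HEK293T had 3 higher with library size only and with the filter, and 0 lower with library size only. The cytoplasm of neurons against liver bud had 0 lower with DESeq2 and 2 with library size only. The causes were not tested.

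Without each library in turn, the depleted members ranged from 0 to 2 in liver bud and 2 to 6 in neurons, the members lower from 0 to 1 in liver bud against HEK293T, in neuron against HEK293T and in the cytoplasm, and those higher in neuron against HEK293T from 1 to 3. The same step moved the log2 paralog difference of H2AZ1 to H2AZ2 from -0.21 to 0.102 in neurons and -0.17 to 0.083 in mouse ES cells, of H3-3A to H3-3B from -0.61 to 0.34 in HEK293T, and of MACROH2A1 to MACROH2A2 from -0.14 to 0.295 in liver bud and -0.12 to 0.025 in neurons.

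A sign turned only in values that were not called in the main edgeR run, with TMM and every library. Some turned values were themselves called by edgeR. These were Macroh2a2 in mouse ES cells with library size only (adjusted p = 0.043) and H3-3A summed with H3P6. For the sum, adjusted p was 8.8e-09 in liver bud, 8.1e-07 in neuron against liver bud and 3.3e-32 in their cytoplasm. MACROH2A2 in HEK293T was 0.056 with DESeq2, 0.056 with RLE, 0.023 with the filter and 0.094 with all human libraries together. H3-3A in neurons was 0.026 with DESeq2, 0.026 with RLE, 0.13 with library size only and 0.072 with the filter. H2AX in liver bud was -0.029 and Macroh2a2 in mouse ES cells -0.35 (-0.038 with the filter) with library size only. Library size only also turned neuron against liver bud for MACROH2A1 (0.038) and MACROH2A2 (0.16), and neuron against HEK293T for H3-3B (0.42) and H1-10 (0.39), which had 0.12 and 0.096 with the filter. Mouse ES cells against HEK293T gave -0.018 for H3-3A with DESeq2 and -0.017 with RLE. With H3P6 summed, H3-3A turned to 0.48 in liver bud, to -1.27 in neuron against liver bud and to 1.74 in neuron against liver bud cytoplasm. Leaving out single libraries turned further uncalled values: H2AJ in HEK293T ranged from -0.603 to 0.18, MACROH2A2 in HEK293T ranged from -0.0798 to 0.011, H2AX in liver bud ranged from -0.12 to 0.38, H3-3A in liver bud ranged from -0.65 to 0.19, H3-3A in neurons ranged from -0.14 to 0.063, H1f10 in mouse ES cells ranged from -1.25 to 0.24, H3-3A in neuron against liver bud ranged from -0.25 to 0.62, MACROH2A2 in neuron against liver bud ranged from -0.3995 to 0.018, H3-3A in liver bud against HEK293T ranged from -0.13 to 0.77, H1-10 in liver bud against HEK293T ranged from -0.082 to 0.75, H3-3B in neuron against HEK293T ranged from -0.103 to 0.056, H1-10 in neuron against HEK293T ranged from -0.25 to 0.13 and H3-3A in mouse ES cells against HEK293T ranged from -0.33 to 0.54.

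Libraries of the same replicate number correlated by -0.02 to 0.06 in their deviations. The study stored sorted P-bodies with aliquots of the matching cytoplasmic fraction, yet no label says that equal numbers mark such a match. A correlation from 2 libraries per fraction cannot settle the pairing, so the block was run as an alternative. With the replicate block 6 members were depleted in HEK293T, 3 enriched and 2 depleted in liver bud, 5 depleted in neurons and 5 in mouse ES cells, and neuron against liver bud had 4 lower instead of 3, with H2AX added. Reads listed for H2AJ, H3-3A and H1-10 in human cells and H1f10 in mouse were few, which limits what their comparisons could show.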
